A study of Mus musculus with 6 samples.

Results

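The genes described here are 45 that build and run the apparatus of cell division: kinetochore and centromere proteins, the spindle checkpoint, the chromosomal passenger complex, the machinery that separates sister chromatids, spindle and centrosome proteins, condensins and other chromosome proteins, and cytokinesis proteins. They were taken by symbol from a count table of 24421 genes, with kinesin (KIF) genes left out, and all 45 symbols had a row and passed the filter on low counts. The samples were mouse endothelial cells (the lining of blood vessels) derived from brain, grown in medium with 20% serum, isolated by fluorescence-activated sorting and sequenced as polyadenylated RNA. The study compared 3 samples of genotype Fli-1 knockout with 3 labelled WT, collected on day 6 of co-culture with a vascular niche after the Fli-1 deletion had been induced with 4-OHT (4-hydroxytamoxifen). The treatment text naming 4-OHT is the same for all 6 samples, so whether the WT cells received the compound cannot be read from it, and strain, age, sex, the recombinase and its promoter are not given. Nothing says that samples of 1 group stem from different cultures or animals, so p-values measure only the spread between these samples, which may be technical.

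A dividing cell condenses its chromosomes with condensins and topoisomerase II, assembles a kinetochore on each centromere, and captures the kinetochores with spindle microtubules. Unattached kinetochores keep the spindle checkpoint active, which holds back Cdc20 and the anaphase-promoting complex; once all are attached, separase cuts the cohesin that joins sister chromatids. The central spindle and the contractile ring then split the cell. Transcripts of most of these proteins accumulate late in the cell cycle and are scarce in resting cells, and most endothelial cells of the adult vessel wall are at rest.

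Library totals ranged from 17550185 to 21385951 counts, and single members had 26 to 2104 counts in a library. Fli1 itself had more reads, not fewer, in the libraries labelled knockout. It stood at 76.8, 111 and 77.3 CPM in the knockout-labelled libraries and 45.3, 59.6 and 45.8 CPM in the wild-type-labelled libraries. CPM are normalised read counts, scaled to library size. Below, values of libraries 1, 2 and 3 are given in that order, the knockout-labelled ones before "against" and the wild-type-labelled ones after it. Fli1 did not pass without the block on replicate number (adjusted p = 0.878, edgeR) and rose with it, by 0.81 ± 0.051 (SE, adjusted p = 1.25e-15). Counts per gene symbol cannot show whether part of the gene was deleted, so they cannot decide whether the labels are right. Each direction below is thus of a label over a label ("knockout-labelled" over "wild-type-labelled"). All 10 endothelial markers were detected, led by Cdh5 at 4777 ± 361 CPM against 4609 ± 209.9 CPM (SD, n = 3) and Pecam1 at 3618 ± 417 CPM against 3402 ± 396 CPM (SD, n = 3). Markers of other cells were present: the 9 fibroblast markers summed to 112, 898 and 402 CPM in the knockout-labelled and 153, 1255 and 437 CPM in the wild-type-labelled libraries, and 11 mural cell markers to 1446, 1885 and 1895 against 1427, 2255 and 1596 CPM. Their highest genes were Col1a1 and Col1a2, and Tagln and Acta2, with Tagln and Acta2 making up most of the mural sum in every library. In the paired test described next, Tek and Emcn of the endothelial markers rose, Pdgfrb, Notch3 and Cspg4 of the mural markers fell, and of the fibroblast markers Col1a1 and Col3a1 fell and Dcn rose. Pair 3 went the other way for Pdgfrb, Cspg4 and Col3a1 (log2 ratios 0.15, 0.06 and 0.02). Dcn was higher in pair 2 only, at -0.004, 0.64 and -0.40 in pairs 1, 2 and 3. Of 11 blood markers with a row, 4 had 0 reads in all libraries, among them Tyrobp and Rac2, and Ptprc stayed at or below 0.334 CPM. The summed blood list was 364 to 396 against 312 to 350.0 CPM, nearly all of it Lcp1, and Lcp1 and Coro1a rose. Brain cell markers, led by Aldh1l1 and Tmem119, summed to at most 23.1 CPM in any library, with Aqp4 at 0 in all, and Tmem119 fell. Several of these marker calls were lost in other paired fits: without pair 2, 0 endothelial and 0 blood markers rose and 1 endothelial marker fell, and with DESeq2 1 mural marker fell and 0 fibroblast and 0 brain cell markers passed. The part of these cells in the results was not tested. Without the libraries numbered 2, which had the most fibroblast transcripts, 39 of the 45 genes rose, beside 2.66% of tested genes. That fit cannot test it, as the fibroblast sums also differed between the groups in pairs 1 and 3.

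In the paired test 41 of the 45 genes rose in the libraries labelled knockout and 0 fell, where 4.81% of the 12753 genes tested rose and 4.01% fell. Their median log2 change was 0.84, from -0.03 for Pttg1 to 1.18 for Dlgap5, and that of all tested genes was -0.003. Within the same-numbered pairs the medians were 0.79, 0.87 and 0.79, and 41 genes were higher in all 3 pairs, as were 20.5% of tested genes. The 4 genes that did not pass were Cenph, Cenpk, Bub3 and Pttg1. Passing genes with a fitted change of at least 1.5-fold numbered 35 (1.33% of tested genes), and 6 members rose by at least 2-fold (0.188% of tested genes). The paired test is edgeR's quasi-likelihood test with Benjamini-Hochberg adjustment over all genes and the replicate number as a block. The test planned by design had no block and called 0 of the 45 genes. The block was added because same-numbered libraries deviated together in these data, and no label states such a pairing.

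Other paired fits called 38 members with DESeq2 (2.05% of tested genes), 41 with limma-voom (4.71%), and 42, 39 and 39 without pair 1, 2 or 3 (4.69%, 2.66% and 4.33%). Without the block the same edgeR test called 0 of the 45 genes in either direction, beside 0% of all tested genes higher and 0.00784% lower; the smallest adjusted p of a member was 0.625, for Dlgap5. At an unadjusted p under 0.05 it had 40 members higher, beside 2.64% of tested genes. DESeq2 without the block called 6 members (Dlgap5, Smc2, Top2a, Mki67, Anln and Racgap1), beside 0.0941% of tested genes, and limma-voom called 0 (0% of tested genes). The libraries of the 2 groups did not overlap for 32 of the 45, all knockout-labelled above wild-type-labelled, as for 5.25% of tested genes. In a paired test against a minimum of 1.5-fold, 14 members passed, of 22 genes in all (0.173% of tested genes). Every "rose" or "fell" below refers to the paired test. More dividing cells and more of these transcripts in each dividing cell cannot be told apart in bulk RNA.

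**Figure D1:**
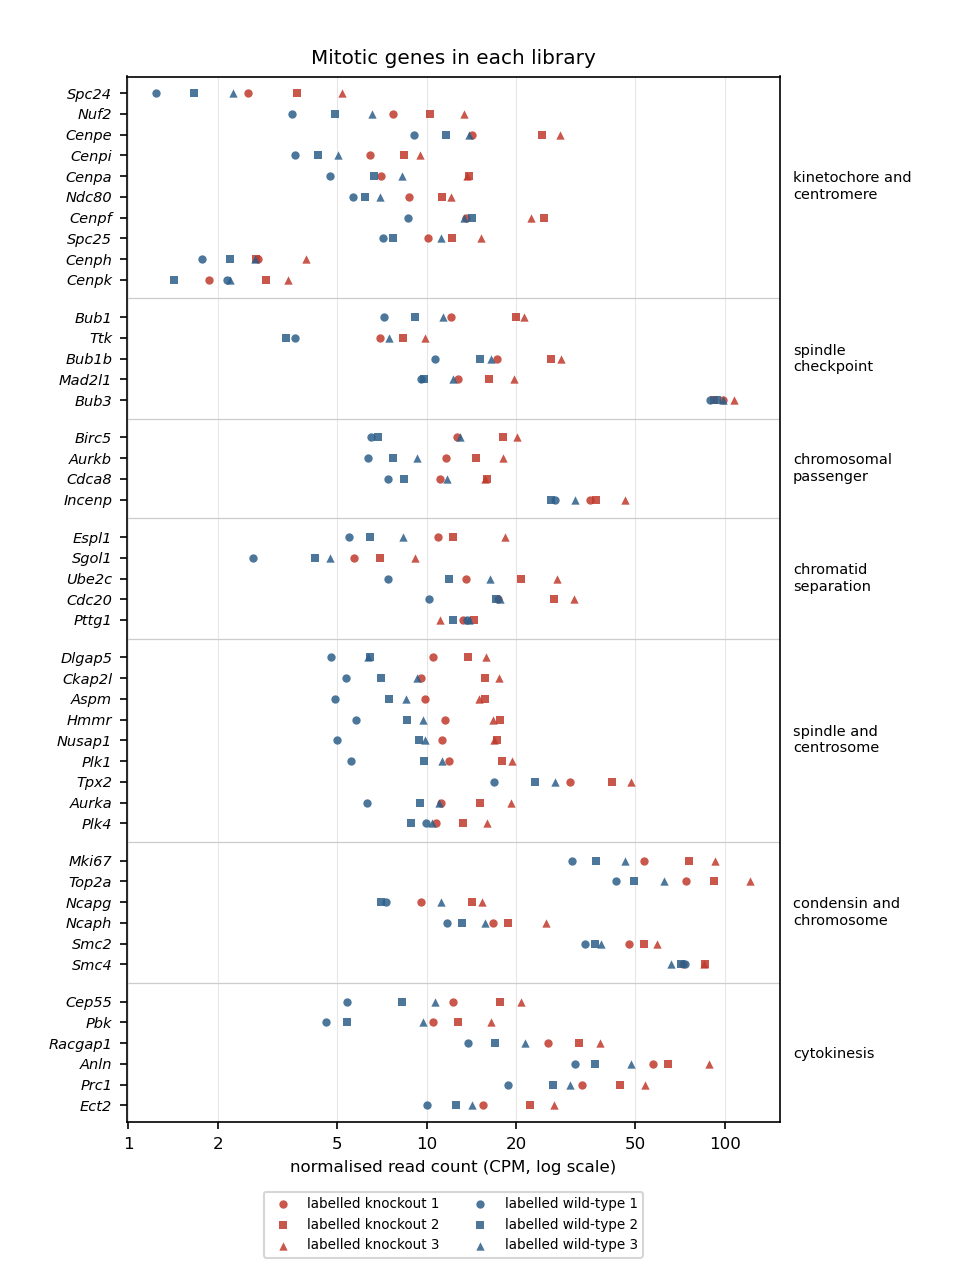
Normalised read count (CPM, log scale) of each of the 45 genes in the 6 libraries, grouped by role; red points are the libraries labelled knockout, blue points those labelled wild-type, and circles, squares and triangles are numbers 1, 2 and 3. For 32 genes every red point lies to the right of every blue point; Bub3 and Pttg1 show the groups mixed.

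Promoters of these genes were searched for short sequence elements. Members were chosen as cell division genes and not by these sequences. Shares of the elements describe the listed genes and bear on no difference between the labels. The cell cycle genes homology region (CHR) binds the MuvB complex, which represses or activates its targets with other partners in turn, and the CCAAT box binds the factor NF-Y. RefSeq promoter windows of GRCm38.p6, from 250 bases before to 50 after a start, were found for 38 members (44 windows). The letters TTTGAA (CHR), TTTAAA (a CHR variant) and CCAAT were searched on both strands; 1 pair of matches of different motifs overlapped. The 120 bases before the start are printed 5′ to 3′ on the gene's strand for Cdc20 at chr4:118437344-118437463 on the minus strand, Espl1 at chr15:102296173-102296292 on the plus strand, Top2a at chr11:99024190-99024309 on the minus strand, Ckap2l at chr2:129297213-129297332 on the minus strand and Ncapg at chr5:45669805-45669924 on the plus strand, whose CHR lies within 30 bases of the start; for Mki67 at chr7:135716380-135716499 on the minus strand, with CHR letters farther away; and for Nuf2 at chr1:169531465-169531584 on the minus strand and Cenph at chr13:100775900-100776019 on the minus strand, which hold no match before the start and of which Nuf2 rose and Cenph did not pass. They were chosen after the matches and results were seen, among windows with at most 30 bases of annotated exon. Capitals mark the matches.
Cdc20: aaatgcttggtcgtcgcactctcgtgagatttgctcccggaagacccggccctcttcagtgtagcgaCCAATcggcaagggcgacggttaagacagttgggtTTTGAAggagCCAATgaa
Espl1: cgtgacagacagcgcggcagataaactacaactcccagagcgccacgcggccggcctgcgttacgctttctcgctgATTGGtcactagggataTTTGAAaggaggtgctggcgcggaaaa
Top2a: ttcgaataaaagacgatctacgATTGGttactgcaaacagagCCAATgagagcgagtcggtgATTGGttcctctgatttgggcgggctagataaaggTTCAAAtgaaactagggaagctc
Ckap2l: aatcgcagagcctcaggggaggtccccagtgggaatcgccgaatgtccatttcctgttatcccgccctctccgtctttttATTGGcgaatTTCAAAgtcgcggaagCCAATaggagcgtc
Ncapg: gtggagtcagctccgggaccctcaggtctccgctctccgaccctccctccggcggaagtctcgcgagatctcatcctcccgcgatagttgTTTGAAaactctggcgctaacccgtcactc
Mki67: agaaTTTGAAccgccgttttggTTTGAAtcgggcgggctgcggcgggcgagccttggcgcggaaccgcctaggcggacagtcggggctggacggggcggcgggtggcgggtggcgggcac
Nuf2: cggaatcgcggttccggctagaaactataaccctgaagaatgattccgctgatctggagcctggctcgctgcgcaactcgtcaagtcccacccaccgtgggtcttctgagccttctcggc
Cenph: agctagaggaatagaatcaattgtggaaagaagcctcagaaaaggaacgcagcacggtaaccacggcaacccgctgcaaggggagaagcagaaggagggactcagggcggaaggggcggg

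In Cdc20, Espl1 and Ckap2l the CHR letters began 18, 27 and 30 bases before the start, and a CCAAT match lay 53, 44 and 40 bases before it. Cdc20 and Ckap2l also held a CCAAT match between the CHR letters and the start, 8 and 14 bases before it. Ckap2l held a further CCAAT match 122 bases before the start and further CHR letters after it. Top2a had 3 CCAAT matches before its CHR letters within the printed stretch. TTTGAA occurred in 65.9% of the 44 windows, against 17.9% of all 32851 promoter windows and 11.5% of the 12377 windows of the other tested genes. Between 50 bases before and 50 after the start the shares were 61.4%, 4.9% and 2.8%. CCAAT occurred in 75%, 37.4% and 37.3% of windows, both together in 56.8%, 7.0% and 4.5%, and TTTAAA in 20.5%, 13.2% and 9.1%. None of the 3 was found in 11.4% of member windows and in 45.7% of all windows. The median log2 change was 0.80 for the 25 members with TTTGAA and 0.90 for the 13 without. Of the 4 members that did not pass, Bub3 held TTTGAA and CCAAT, Cenph and Cenpk held CCAAT without TTTGAA, and Pttg1 held none of the 3. The Pttg1 window (43425932 to 43426231) lies wholly inside the annotated gene (43420250 to 43426251), so bases upstream of that gene were not searched. Nuf2, Nusap1, Ncaph and Mad2l1 also held none of the 3 and rose. These are matches of letters, which show no binding.

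**Figure D2:**
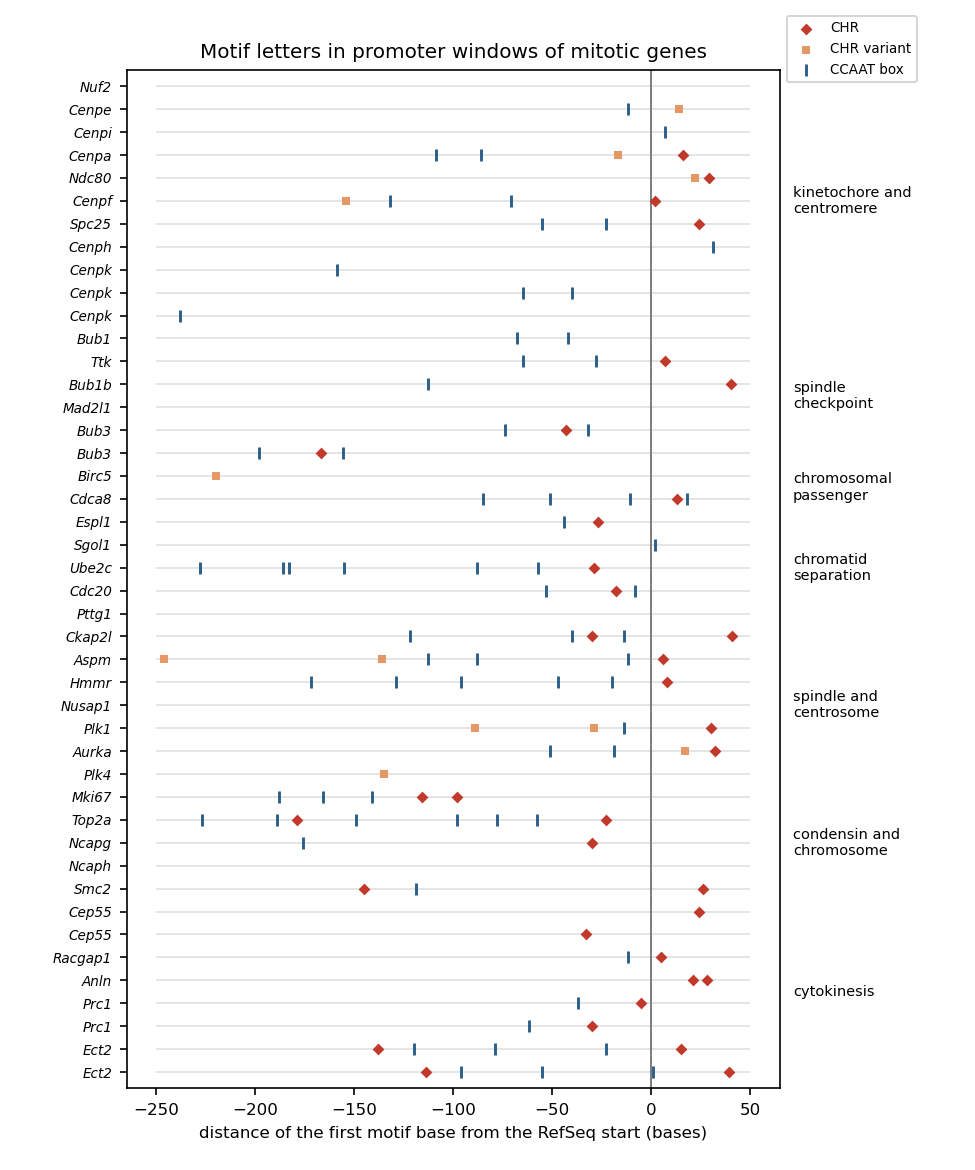
Position of CHR (red diamonds), CHR variant (orange squares) and CCAAT box (blue ticks) letters relative to the RefSeq start in 44 promoter windows of 38 members, 1 line per window, grouped by role. Most CHR matches lie near the start, 61.4% of windows holding 1 or more within 50 bases of it.

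Among the 10 kinetochore and centromere genes 8 rose (median log2 change 0.78). Ndc80, Nuf2, Spc24 and Spc25 encode the NDC80 complex, the rod that grips microtubule ends. Nuf2 measured 7.71, 10.3 and 13.4 against 3.53, 4.94 and 6.58 CPM, so each knockout-labelled library exceeded all wild-type-labelled ones, and the log2 change was 1.06 ± 0.12 (SE, adjusted p = 8.17e-09). Spc24 (chromosome 9, 21755442 to 21760303 on GRCm38) had the largest change of the group from a low level, 2.52, 3.69 and 5.21 against 1.24, 1.66 and 2.24 CPM, by 1.14 ± 0.20 (SE, adjusted p = 5.54e-05). Its partner Spc25 changed least among the 4 subunits, at 10.1, 12.2 and 15.2 against 7.16, 7.70 and 11.2 CPM, with the libraries overlapping and a log2 change of 0.53 ± 0.10 (SE, adjusted p = 3.21e-04). Ndc80 rose by 0.76 with no overlap. Per length of annotated exon, the complex's subunits stood at 1.65 against 0.970 CPM per kilobase for Ndc80, 1.65 against 0.791 CPM per kilobase for Nuf2, 1.48 against 0.667 CPM per kilobase for Spc24 and 3.92 against 2.73 CPM per kilobase for Spc25 (means of knockout-labelled against wild-type-labelled libraries). Spc25 thus had the highest level of the 4 by this measure in both groups. The measure, here and below, divides by all annotated exon bases and not by the length of the expressed transcript.

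Cenpe, a kinesin-like motor that moves chromosomes to the spindle equator, had the highest mean of the group over the 6 libraries, at 14.2, 24.3 and 28.04 against 9.07, 11.6 and 13.9 CPM. Its 3 higher values were all in the knockout-labelled libraries, though library 1 exceeded wild-type-labelled library 3 only narrowly, and it rose by 0.93. Cenpf, a large kinetochore corona protein, rose by 0.73 and Cenpa, the histone H3 variant that marks centromeres, by 0.81, both with overlapping libraries. Cenph, Cenpi and Cenpk belong to the inner, constitutive centromere network. Cenpi rose by 0.90 with no overlap, at 6.47, 8.39 and 9.50 against 3.63, 4.32 and 5.05 CPM. Cenph and Cenpk had the fewest reads of the members beside Spc24 and did not pass. Cenph was 2.71, 2.67 and 3.94 against 1.77, 2.19 and 2.65 CPM, a log2 change of 0.49 ± 0.20 (SE, adjusted p = 0.118), with the groups separate by a narrow margin. Cenpk was 1.86, 2.89 and 3.42 against 2.15, 1.43 and 2.19 CPM; pair 1 went the other way (-0.21, 1.02 and 0.64 in pairs 1, 2 and 3), and without pair 1 Cenpk passed, at 0.81 (adjusted p = 0.026).

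Of 5 spindle checkpoint genes 4 rose, with a median of 0.76. Bub1, the kinase that recruits checkpoint proteins to kinetochores, had the largest change, at 12.04, 19.9 and 21.1 against 7.21, 9.12 and 11.3 CPM, with no overlap and a log2 change of 0.93 ± 0.097 (SE, adjusted p = 1.64e-09). Bub1b, its relative in the mitotic checkpoint complex, rose by 0.76 and Mad2l1, which captures Cdc20, by 0.61; both groups were separate. Ttk, the kinase known as Mps1 that starts checkpoint signalling, was 6.995, 8.34 and 9.91 against 3.63, 3.37 and 7.50 CPM. Wild-type-labelled library 3 was the high value there and overlapped the other group, and the pairs differed most widely among the genes that rose here, at 0.95, 1.31 and 0.40. Bub3 (chromosome 7, 131560222 to 131571895), the partner of Bub1 and Bub1b, had the highest count of the group and was nearly level, at 98.6, 91.9 and 107 against 89.5, 94.1 and 98.7 CPM, a log2 change of 0.08 ± 0.048 (SE, adjusted p = 0.386). Per length Bub3 stood at 14.2 against 13.4 CPM per kilobase, above Bub1 at 4.07 against 2.12 CPM per kilobase and Bub1b at 5.58 against 3.29 CPM per kilobase.

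All 4 genes of the chromosomal passenger complex, which corrects wrong attachments and later drives cytokinesis, rose. The kinase subunit Aurkb was 11.6, 14.7 and 18.02 against 6.35, 7.74 and 9.28 CPM, with no overlap and pairs close together at 0.87, 0.92 and 0.96. Its log2 change was 0.92 ± 0.10 (SE, adjusted p = 5.5e-09). Birc5, known as survivin, had the largest change, 0.97 ± 0.11 (SE, adjusted p = 1.93e-07), at 12.7, 18.1 and 20.1 against 6.49, 6.89 and 12.9 CPM; its libraries overlapped and pair 2 stood out at 1.39. Cdca8, known as borealin, rose by 0.64 with overlap. The scaffold Incenp had the highest count and the smallest change, 35.3, 37.0 and 46.5 against 26.97, 26.1 and 31.4 CPM, by 0.49 ± 0.064 (SE, adjusted p = 2.97e-07), and its groups were separate. Per length the 4 stood at 5.01 against 2.65 CPM per kilobase for Aurkb, 4.97 against 2.58 CPM per kilobase for Birc5, 2.75 against 1.77 CPM per kilobase for Cdca8 and 9.15 against 6.504 CPM per kilobase for Incenp.

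Among the 5 genes of sister chromatid separation 4 rose. Espl1 encodes separase, the protease that cuts cohesin, and was 10.9, 12.2 and 18.3 against 5.49, 6.46 and 8.31 CPM, a log2 change of 1.02 ± 0.11 (SE, adjusted p = 1.62e-09) with no overlap. Pttg1 (chromosome 11, 43420250 to 43426251) encodes securin, the inhibitor of separase, and moved little: 13.3, 14.4 and 11.1 against 13.7, 12.3 and 13.9 CPM. The pairs disagreed in sign, at -0.04, 0.24 and -0.32, the log2 change was -0.03 ± 0.099 (SE, adjusted p = 0.898), and the fit without pair 3 gave 0.10. The difference between protease and inhibitor was not tested. Cdc20, which activates the anaphase-promoting complex, had the highest count of the group, 17.4, 26.7 and 31.1 against 10.2, 17.1 and 17.7 CPM, and rose by 0.74 with knockout-labelled library 1 just below wild-type-labelled library 3. Ube2c, the ubiquitin-conjugating enzyme of that complex, rose by 0.80, also with overlap, and shares 22.8% of its exon bases with Tnnc2 on the other strand, so its reads cannot be fully assigned without strand. Sgol1, shugoshin, which shields centromeric cohesin, was low at 5.71, 7.004 and 9.15 against 2.62, 4.23 and 4.74 CPM and rose by 0.92 with no overlap.

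The 9 spindle and centrosome genes all rose, with a median of 0.92, and for all 9 the libraries did not overlap. Dlgap5 (chromosome 14, 47387779 to 47418407), known as HURP, which stabilises microtubules near chromosomes, had the largest change of the 45, at 10.5, 13.8 and 15.9 against 4.77, 6.46 and 6.38 CPM, by 1.18 ± 0.11 (SE, adjusted p = 9.37e-11). It ranked 10 of 12753 genes by log2 change, and 25 of the 45 were among the top 100. The 45 were chosen with earlier results of these data known, so these ranks are a description only. Tpx2 (chromosome 2, 152847964 to 152895321), which activates Aurora A on the spindle, had the highest count of the group, 30.4, 42.0 and 48.6 against 16.9, 23.2 and 26.9 CPM, and nearly the same change in each pair, 0.85, 0.86 and 0.85. Its log2 change was 0.85 ± 0.065 (SE, adjusted p = 4.94e-13). Aurka, the Aurora A kinase itself, rose by 0.76, and Plk1, the polo-like kinase of mitotic entry and exit, by 0.89. Aspm, which focuses spindle poles, rose by 0.96, Hmmr, a spindle assembly factor, by 0.94, Nusap1, a microtubule bundler, by 0.92 and the spindle protein Ckap2l by 0.98. Plk4, which starts centriole duplication before mitosis, changed least, at 10.8, 13.2 and 15.99 against 9.98, 8.84 and 10.5 CPM. Pair 1 differed little (0.11, 0.58 and 0.61), the log2 change was 0.44 ± 0.10 (SE, adjusted p = 0.00380), and Plk4 did not pass without pair 2, without pair 3 or with DESeq2.

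All 6 condensin and chromosome genes rose, with a median of 0.60. Top2a, the topoisomerase that untangles sister chromatids, was 74.0, 91.8 and 122 against 43.3, 49.7 and 62.5 CPM, a log2 change of 0.88 ± 0.051 (SE, adjusted p = 1.2e-16). Mki67, which coats mitotic chromosomes, had the largest change of the group, at 53.4, 75.7 and 93.0 against 30.8, 37.1 and 46.4 CPM, by 0.95 ± 0.056 (SE, adjusted p = 1.2e-16). For both the lowest knockout-labelled library was above the highest wild-type-labelled one. Smc2 and Smc4 form the core shared by both condensins; the difference between them was not tested. Smc2 was 47.8, 53.6 and 59.3 against 34.1, 36.9 and 38.5 CPM, without overlap, by 0.55 ± 0.057 (SE, adjusted p = 1.31e-09), and Smc4 was 72.4, 86.2 and 85.4 against 73.6, 71.3 and 66.3 CPM, by 0.20 ± 0.058 (SE, adjusted p = 0.0248). Smc4 was level in pair 1 (-0.02, 0.27 and 0.37 over the pairs), and its call was lost without pair 2, without pair 3, with DESeq2, at an FDR of 0.01 and when libraries were scaled by size only. Ncapg and Ncaph, subunits of condensin I, rose by 0.62 and 0.57. Ncapg, the lowest of the group, was 9.56, 14.2 and 15.3 against 7.30, 7.03 and 11.2 CPM, with overlap, and shares 13.4% of its exon bases with Lcorl on the other strand. Per length Smc2 stood at 9.78 against 6.66 CPM per kilobase, Smc4 at 15.6 against 13.5 CPM per kilobase, Ncaph at 4.70 against 3.14 CPM per kilobase and Ncapg at 1.84 against 1.20 CPM per kilobase. The core subunits were thus higher in both groups by this measure, which divides by all annotated exon bases and not by the length of the expressed transcript.

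The 6 cytokinesis genes rose within a narrow range, 0.79 to 1.07, with a median of 0.87, and none had overlapping groups. Anln, known as anillin, a scaffold of the contractile ring, had the highest count, 57.5, 64.7 and 88.9 against 31.4, 36.8 and 48.5 CPM. Its pairs differed by 0.87, 0.81 and 0.88, and the fitted change was 0.86 ± 0.054 (SE, adjusted p = 9.76e-16). Cep55 (chromosome 19, 38055011 to 38074423), which recruits the abscission machinery to the midbody, had the largest change, at 12.2, 17.7 and 20.7 against 5.39, 8.27 and 10.7 CPM, by 1.07 ± 0.099 (SE, adjusted p = 8.34e-11). Ect2, the exchange factor that activates RhoA at the cell equator, had the smallest, 15.4, 22.2 and 26.8 against 10.1, 12.6 and 14.2 CPM, by 0.79 ± 0.087 (SE, adjusted p = 5.5e-09). Its activator Racgap1 rose by 0.89, Prc1, which bundles microtubules of the central spindle, by 0.80, and the mitotic kinase Pbk by 1.03. Pbk had the lowest count of the group, 10.5, 12.7 and 16.4 against 4.58, 5.42 and 9.74 CPM. Prc1 shares 11.1% of its exon bases with Rccd1 on the other strand; with Ube2c and Ncapg these were the 3 members that share over 10%. In a search for copies elsewhere at 97% identity over at least 200 bases, only Mki67 and Racgap1 had a match, of 216 and 488 bases.

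**Figure D3:**
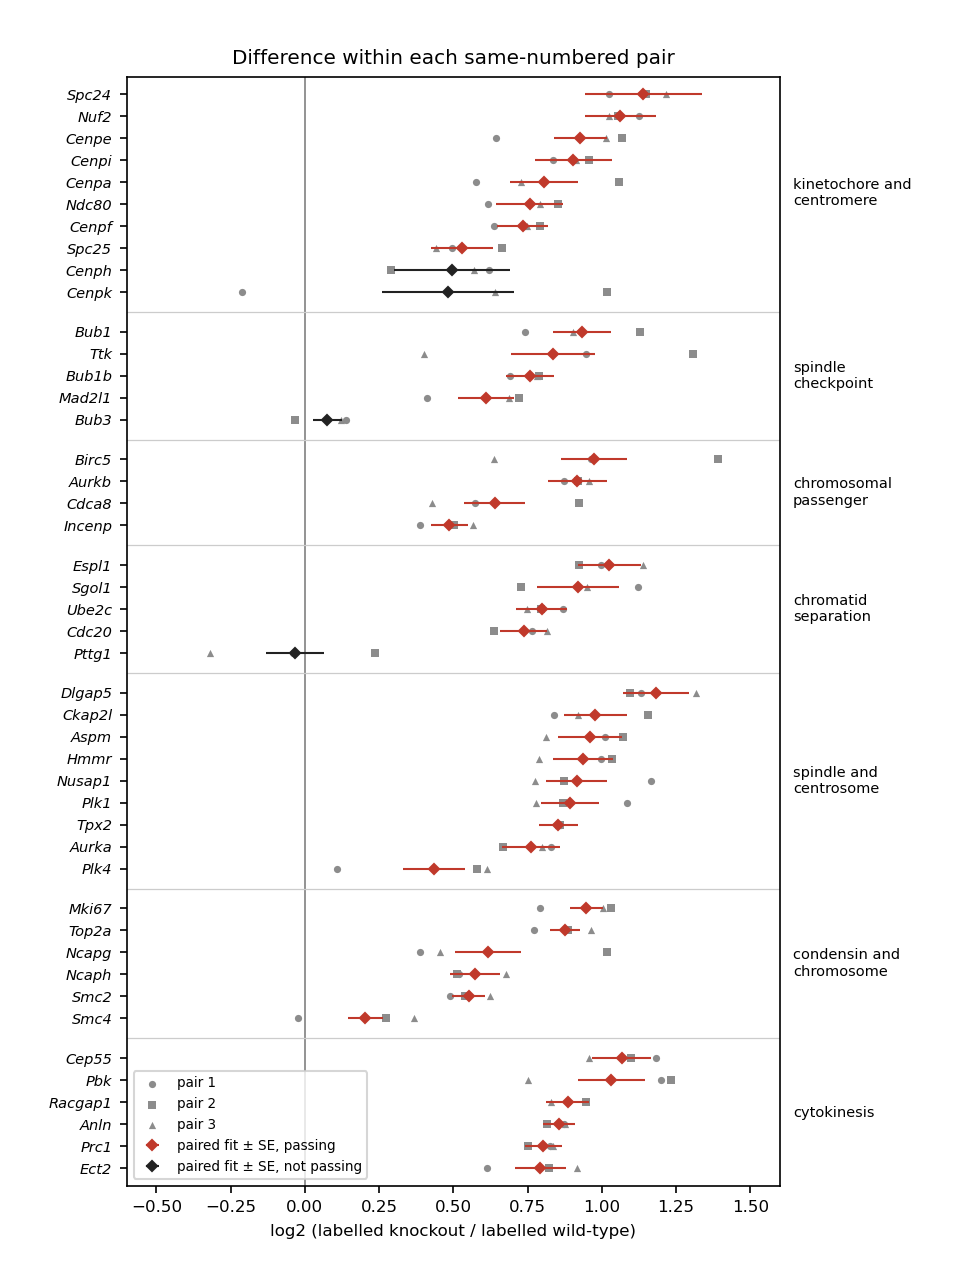
Log2 ratio of the library labelled knockout over the library labelled wild-type in each same-numbered pair (grey circles, squares and triangles for pairs 1, 2 and 3) and the paired fit with its SE (diamonds; red passing, black not passing), for the 45 genes by role. The fits reach from -0.03 for Pttg1 to 1.18 for Dlgap5, and the cytokinesis genes lie within 0.79 to 1.07.

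The members also differed between libraries of the same group, and alike in both groups. Among the knockout-labelled libraries number 1 was lowest for 42 of the 45 genes and number 3 highest for 37; among the wild-type-labelled libraries number 1 was lowest for 38 and number 3 highest for 42. The median log2 ratio of library 3 over library 1 was 0.66 in the first group and 0.63 in the second, not far below the median of 0.79 to 0.87 between groups within a pair. Over tested genes with reads in every library the ratio of library 3 over library 1 had a median of 0.002 in both groups. Library 2 stood above library 1 by medians of 0.42 and 0.29. The members took 0.0884%, 0.115% and 0.132% of counts in the knockout-labelled libraries and 0.0606%, 0.0722% and 0.0824% in the wild-type-labelled ones, so the lowest of the first group was close to the highest of the second. Knockout-labelled library 1 exceeded wild-type-labelled library 3 by a median log2 ratio of 0.11, in 34 of 45 genes. For tested genes with reads in every library that median was 0.003, with 6454 of 12730 above 0. The difference shared by same-numbered libraries is what the block removes: the SE without the block was a median 2.38 times that with it for the members and 1.34 times for tested genes with reads in every library. The labels do not say what the numbers stand for. Fibroblast transcripts followed another order, with number 2 highest in both groups.

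**Figure D4:**
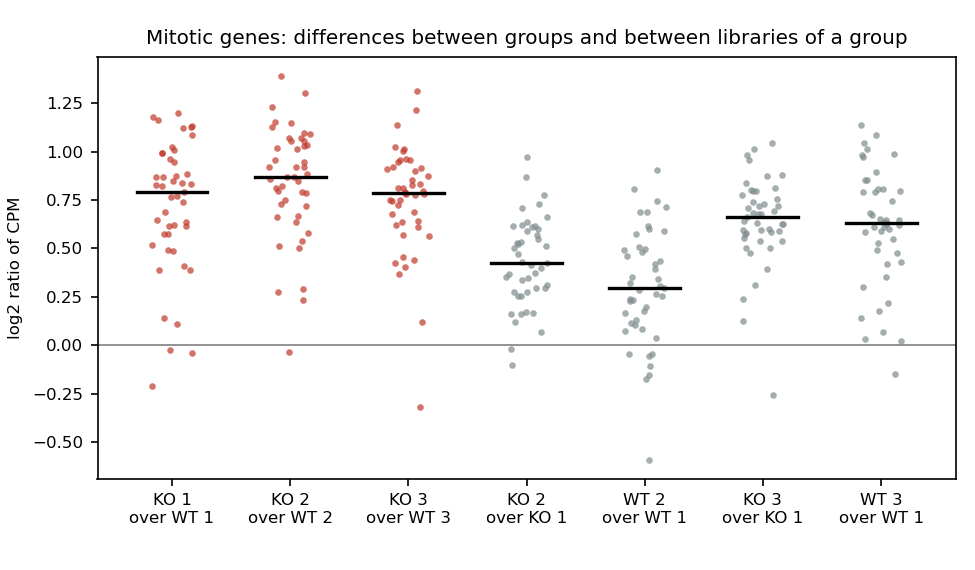
Log2 ratios of CPM for the 45 genes (points) with their medians (black lines): knockout-labelled (KO) over wild-type-labelled (WT) libraries in the 3 same-numbered pairs in red, and libraries 2 and 3 over library 1 of the same group in grey. The medians are 0.79, 0.87 and 0.79 between groups, and 0.66 and 0.63 for library 3 over library 1.

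Of 133 tested genes in 8 lists of related machinery 42 rose and 2 fell (median log2 change 0.12). Of all 12753 tested genes 4.81% rose and 4.01% fell, the shares to set beside each list count. Of 28 further kinetochore genes 12 rose and 0 fell (median 0.46). Kntc1, a subunit of the complex that brings dynein to kinetochores, averaged 16.9 ± 4.05 CPM against 9.19 ± 1.96 CPM (SD, n = 3) and rose by 0.87, and Ska2, of the microtubule-tracking SKA complex, by 0.46. Of 7 further checkpoint and passenger genes 4 rose, among them Trip13, which takes checkpoint complexes apart, by 0.92, the phosphatase regulator Cdca2 by 0.87 and Sgol2a by 0.71. Of 36 further spindle and centrosome genes 15 rose and 1 fell: Depdc1a rose by 1.24 at a low level, 2.73 ± 0.735 CPM against 1.14 ± 0.0870 CPM (SD, n = 3), and the centriole genes Stil by 0.71 and Sass6 by 0.60. The gene that fell, Psrc1, which acts on spindle microtubules, had a mean of 30.4 ± 6.14 CPM against 35.9 ± 2.44 CPM (SD, n = 3); its log2 change was -0.25 ± 0.069 (SE, adjusted p = 0.0154), a call lost with DESeq2, at an FDR of 0.01 and without pair 2. DESeq2 with the block called 5 of the 28 and 6 of the 36 higher, beside 2.05% of tested genes. Without pair 2 the spindle count was 9, beside 2.66% of tested genes.

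The anaphase-promoting complex and cohesin are also used by cells outside mitosis. Their counts and those of the next lists stand beside 4.81% of all tested genes that rose and 4.01% that fell. Of 17 genes of the complex and its regulators only Fbxo5, its inhibitor Emi1, rose, by 0.55 ± 0.13 (SE, adjusted p = 0.00416), and it did not pass with DESeq2; the median was 0.05. Anapc11 and Fzr1 had log2 changes of 0.15 and 0.13 and did not pass. Of 14 cohesin genes 2 rose, Esco2 by 1.02 and Cdca5, known as sororin, by 0.65, which establish and maintain cohesion in dividing cells; Cdca5 did not pass with DESeq2. The loader subunit Mau2 fell from 110.0 ± 4.88 to 98.8 ± 3.05 CPM (SD, n = 3), a change on the log2 scale of -0.16 ± 0.046 (SE, adjusted p = 0.0229), a call lost with DESeq2, at an FDR of 0.01 and without pair 1 or pair 2. Of the other condensin subunits Ncapd2, of condensin I, rose by 0.47 and Ncapg2, of condensin II, by 0.66, while Ncapd3 and, chosen after its value was seen, Ncaph2 had 0.18 and 0.11 and did not pass. Of 13 further cytokinesis genes Arhgap11a rose by 0.55 and the kinase Cit by 0.65, while Chmp4b, of the abscission machinery, had 0.08 and did not pass; the median was 0.02.

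Transcription factors that act on CHR and CCAAT elements were measured as well, and 4 of 14 rose, beside 4.81% of all tested genes. Foxm1, an activator of late cell cycle genes, was 35.5, 37.9 and 46.7 against 24.0, 22.7 and 31.7 CPM, with no overlap and a log2 change of 0.62 ± 0.065 (SE, adjusted p = 1.86e-09). Mybl2, known as B-Myb, the other activator that joins MuvB, rose by 0.77, with 7.58 ± 2.31 CPM against 4.41 ± 1.06 CPM (SD, n = 3). Rbl1, known as p107, a pocket protein that can join the repressive form, rose by 0.47, and Tfdp1, an E2F partner, by 0.16 ± 0.051 (SE, adjusted p = 0.0394). At an FDR of 0.01, with DESeq2, with library size as the only scaling and without pair 2 or pair 3, 3 of the 14 rose. The MuvB subunits Lin9, Lin37, Lin52, Lin54 and Rbbp4 had log2 changes of 0.14, 0.02, -0.01, 0.11 and 0.12, and the NF-Y subunits Nfya, Nfyb and Nfyc -0.03, -0.07 and 0.08; none passed. Genes of this list beyond Foxm1, Rbl1 and Mybl2 were named after their values were seen.

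**Figure D5:**
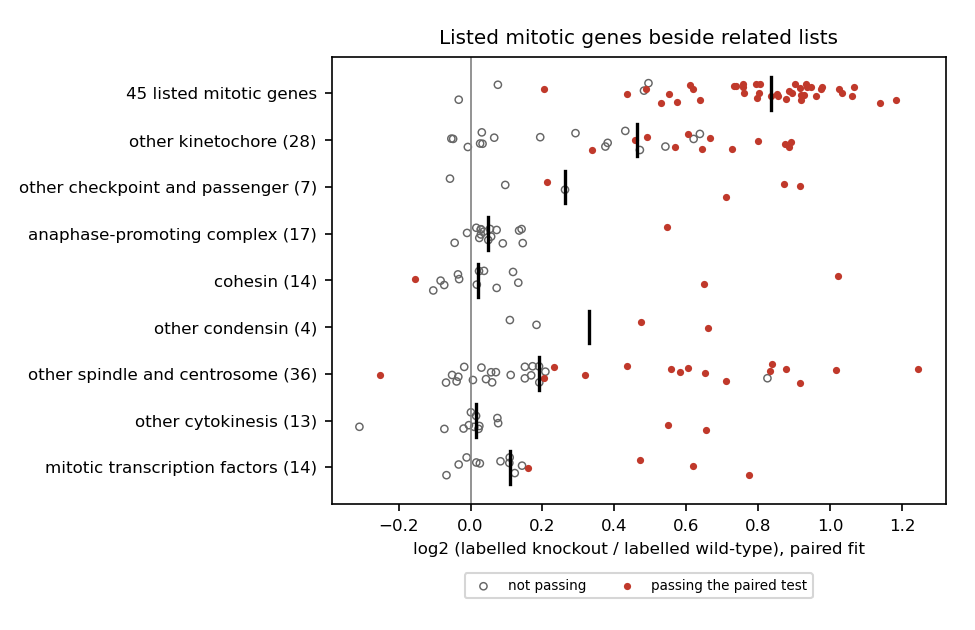
Log2 change of the paired fit for the 45 genes and for 8 related lists (number of tested genes in parentheses); red points passed the paired test, open circles did not, and black bars are medians. The median is 0.84 for the 45 genes, 0.46 for the other kinetochore genes and 0.02 to 0.33 for the remaining lists.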

How the data were processed

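The values deposited by the authors are raw counts of reads for each gene symbol. FastQC 0.11.8 and Trim Galore 0.6.4 (reads), STAR 2.6.1d (alignment software) and featureCounts of Subread 1.6.4 appear in the submitters' processing notes, with builds mm10 and GRCm38. Annotation, strand setting and treatment of multi-mapping reads: not given in the sources used here. Libraries came from a stranded or a non-stranded TruSeq kit, per the labels' protocols, without saying which sample had which.

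Tests used edgeR 4.0.16 in R 4.3.3. Low counts were filtered with filterByExpr (12753 of 24421 genes kept), TMM factors were 0.983 to 1.02, and the test was the robust quasi-likelihood test at a false discovery rate (FDR) of 0.05 over all genes tested. The SE is the log2 change divided by the square root of F. By design the fit has no block. Both groups carry replicate numbers 1 to 3. Same-numbered libraries deviated together from their group means (correlations 0.776, 0.857 and 0.652), so the numbers were taken to pair them; this pairing comes from the data and is stated by no label. With the block the biological coefficient of variation was 0.0383 (0.189 without), on 2 residual degrees of freedom (4 without). Small paired p-values thus lean on variance shared between genes, as an exact permutation test allows no p below 0.1 for 3 against 3 libraries or 0.25 for 3 pairs. DESeq2 1.42.0 and limma 3.58.1 (voom) were alternatives, with other scalings, filters and thresholds and with libraries or pairs left out. The scripts were tested on simulated counts.

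The 45 members and all lists were chosen with earlier results of these data known, so no test was made over a list. All members are named; values in every library are given for the highest and lowest mean level and the largest and smallest log2 change of each role, and for some others chosen after their values were seen. Of each related list up to 3 genes with the smallest unadjusted p are named, with any that passed against the direction of its list, and of each marker list the 2 highest. A gene that this rule names in a related list is not reported here. Coordinates, exon lengths and exon overlaps come from GENCODE M21 on GRCm38, to which 95.7% of symbols matched. Promoter sequences are RefSeq's on GRCm38.p6.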

Additional observations from a re-analysis of the deposited data

How the results depend on the processing

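Without a block, DESeq2 called 12 genes higher and 7 lower, of which 6 higher were members, and the replicate block called 613 and 511, of which 41 higher were members. limma-voom, an FDR of 0.01 and a minimum of 1.5-fold called 0 genes lower, and leaving out 1 library gave 0 to 1 genes lower. With the replicate block as the base, DESeq2 called 262 genes higher and 111 lower, an FDR of 0.01 gave 388 and 259, and a minimum of 1.5-fold gave 22 and 5, with 14 members higher. Fits that left out 1 pair called 339 to 603 genes higher and 205 to 600 lower, the fewest of both without pair 2. Scaling by library size only moved the paired split from 613 and 511 to 471 and 734. The cause was not tested. Members higher under the block numbered 14 with the minimum of 1.5-fold and 38 to 42 under every other paired alternative. The count was 38 with DESeq2 (without Spc25, Plk4 and Smc4) and 40 with library size as the only scaling or at an FDR of 0.01. It was 42, 39 and 39 without pair 1, 2 or 3. The median log2 change of the members stayed at 0.81 to 0.85 over all paired alternatives, while the median of all tested genes ranged from -0.03 to 0.00. Pttg1 changed direction: leaving out 1 library gave log2 changes of -0.12 to 0.063, the positive value without knockout-labelled replicate 3, and the replicate block without pair 3 gave 0.10. It passed in neither. The other members, Fli1 and the list genes picked by the naming rule (71 genes in all, with Pttg1) kept their direction in the alternatives run; other list genes that the text names were not followed singly. The low counts of Cenph, Cenpk and Spc24 limit what their tests can show.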

Other observations

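Across the 45 genes, the paired log2 change and the mean level per length had a Spearman rho of -0.279, and -0.186 without Bub3 and Pttg1 (43 genes). These values are a description across genes of the same 6 libraries, and genes are not independent replicates.

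The 45 genes lie on 15 chromosomes, with at most 9 on any of them (chromosome 2). Their annotated exons span 1784 to 15433 bases per gene, the longest being those of Cenpf.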
